A study of Homo sapiens with 12 samples.

Results

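The integrin genes of myeloma cell adhesion described here are ITGA4, ITGB7, ITGB1, ITGAL, ITGB2, ITGA6, ITGA5, ITGAV, ITGB3 and ITGAE, 10 of 19775 genes on the arrays. Each was taken with every probe set that the platform annotation pairs with it alone, 29 of 54613 probe sets tested, and the probe set with the highest mean represents the gene.

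Integrins are receptors made of 1 alpha and 1 beta chain that hold cells to matrix proteins and to other cells, and partner choice sets the ligand. In myeloma, a cancer of plasma cells, ITGA4 joins ITGB1 (VLA-4) or ITGB7 to bind VCAM1 and fibronectin in bone marrow, ITGAL joins ITGB2 (LFA-1) to bind ICAM proteins, and ITGAE needs ITGB7 as its partner. ITGA5 and ITGA6 with ITGB1 bind fibronectin and laminin, and ITGAV takes several beta chains, ITGB3 among them, to bind vitronectin and related proteins.

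The cells were INA-6, an interleukin-6-dependent line from a human myeloma, and the arrays were Affymetrix HG-U133 Plus 2.0. The 3 groups of 4 arrays were cells given SB590885, an inhibitor of B-Raf per the labels, cells given PD325901, an inhibitor of MEK, and cells given only the solvent DMSO. All cultures held 2 ng/ml interleukin-6 and 10% fetal calf serum, and all come from this 1 line. The sources used here give neither inhibitor concentrations nor treatment times, so the inhibitors are compared as applied. Per the design text, arrays within a group are biological replicates, and their spread is the error used throughout. A level is the authors' log2 expression value of a probe set, and a difference of 1 is a 2-fold change. The words rose and fell stand for an adjusted p under 0.05 in limma (Benjamini-Hochberg, over all genes).

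The integrins that passed against DMSO in this fit were the alpha chains ITGA4 and ITGAL. ITGA4 fell with SB590885 to 0.555 times the DMSO level, and did not pass with PD325901. ITGAL fell with both inhibitors, to 0.790 times the DMSO level with SB590885 and 0.692 times with PD325901. ITGA6 and ITGAV did not pass against DMSO in this fit, and did when arrays of the same number were compared with each other (the replicate block). None of the beta chains ITGB1, ITGB2, ITGB3 and ITGB7 passed against DMSO, with or without this pairing. Of these beta chains only ITGB1 lay above the background level defined below, so alpha and beta chains cannot be contrasted as kinds. ITGAL averaged just under that level, and its call with SB590885 held in 14 of 25 alternative fits. In bulk RNA, fewer cells that carry a transcript and less of it per cell cannot be told apart.

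In a second label the arrays of each group read 1, 2, 1R and 2R, so arrays 3 and 4 repeat the numbers of arrays 1 and 2 with an added R, which no source used here explains. If these were repeats of the same cultures, n = 4 would count arrays of fewer cultures. Of the 10 integrin genes, 8 differed between arrays with and without this mark, 3 higher and 5 lower with it, against 55.6% of all genes, and each group has 2 arrays of either kind. Of 11 plasma cell markers 10 lay above 7.76, the 95th percentile of 38 genes restricted to other tissues and taken here as background, and platelet (0 of 7) and monocyte (0 of 10) markers did not. Of 16 T and NK cell markers 3 did, led by CD247, while CD3D (6.9), CD3E (6.9) and CD3G (6.7) were near the background median of 6.71. The summed T and NK list spanned 11.9 to 12.1 on SB590885 arrays, 12.2 to 12.3 on PD325901 arrays and 12.15 to 12.18 on DMSO arrays, and its part in the falls below was not tested. Endothelial markers, of which only PECAM1 of 8 lay above background, summed to 9.86 to 10.07 on SB590885 arrays, 10.24 to 10.42 on PD325901 arrays and 10.04 to 10.19 on DMSO arrays, which was not tested either. Of 10 stromal and fibroblast markers 2 lay above background, PDGFRA (10.52) and COL1A1 (8.25). That list summed to 11.27 to 11.34 on SB590885 arrays, 11.29 to 11.66 on PD325901 arrays and 11.28 to 11.60 on DMSO arrays, and its part was not tested. Summed B cell markers were 10.37 to 10.57 on SB590885 arrays, 10.30 to 10.35 on PD325901 arrays and 10.32 to 10.39 on DMSO arrays. Summed plasma cell markers were 15.4 to 15.8 on SB590885 arrays, 15.8 to 16.1 on PD325901 arrays and 15.7 to 15.9 on DMSO arrays, and the part of both lists was not tested. RNA quality, read as the signal of the GAPDH control nearer the 3' end minus that nearer the 5' end, averaged 0.440 ± 0.035 on SB590885 arrays, 0.425 ± 0.057 on PD325901 arrays and 0.371 ± 0.033 on DMSO arrays (SD, n = 4 each), and its part was not tested either. For the ACTB control the same reading was larger, at 1.65 ± 0.17 on SB590885 arrays, 1.64 ± 0.10 on PD325901 arrays and 1.58 ± 0.17 on DMSO arrays. The median level of 15 interferon response genes was 11.2 on PD325901 replicate 2, 11.6 on DMSO replicate 2 and 8.79 on SB590885 replicate 2. It was 7.07 to 7.68 on the arrays of the other numbers, so calls are also given without replicate 2. Of 10 transcripts known to follow ERK activity, which lies below Raf and MEK, 3 fell with SB590885 and 5 with PD325901. Of all genes 1.69% and 0.506% were lower. ETV4, SPRY2, SPRY4, PHLDA1 and EPHA4, which fell with neither, averaged 6.28 to 7.36, under the background level of 7.76. ETV5, which fell with both, averaged 7.72, under it too. With arrays of the same number paired, 5 of the 10 were lower with each, against 9.84% and 6.18% of all genes. SPRED1 and SPRED2 were those added for SB590885 (limma adjusted p = 5.16e-06 and 0.00441).

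Not every member had a level above background. Probe sets above 7.76 on average numbered 11 of 29: all 4 of ITGA4, 3 of 7 for ITGB1, both of ITGA6, and the single ones of ITGAV and ITGAE. ITGAL, with means of 7.53 and 7.70 over its 2 probe sets, lay just under this line. The line rests on few genes: of the 38 behind it, the highest were KRT10 (9.78), SFTPB (7.76), SFTPC (7.75) and SYT1 (7.51). Both ITGAL probe sets lay above SYT1, so their place against background depends on the genes above SYT1. The other 16 probe sets, of ITGB1, ITGB2, ITGB3, ITGB7 and ITGA5, averaged between 6.11 and 7.35. ITGB2, the partner of ITGAL, reached 6.99, and ITGB7, the partner of ITGAE, 7.35, so neither beta chain was told from background.

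Of the alpha chains above background ITGA4, ITGA6 and ITGAV were taken here, with ITGB1, the beta chain they can share, which did not pass. Promoter windows show the DNA just before the start of these 4 members. Each is the stretch of 250 bases before a RefSeq transcript start (GRCh38.p14), read 5′ to 3′ on the gene's strand. Capitals mark matches on either strand to CCGGAA (an ETS core), to GAGGAA (the core read by PU.1-type ETS factors), to TGANTCA (the AP-1 site) and to GGGCGG (the SP1 site). ETS and AP-1 factors are textbook targets of ERK. RefSeq windows were found for 7 of the 10 genes, and ITGAL, ITGB2 and ITGB3 were not among them.
ITGA4, chr2:181457136-181457385, plus strand: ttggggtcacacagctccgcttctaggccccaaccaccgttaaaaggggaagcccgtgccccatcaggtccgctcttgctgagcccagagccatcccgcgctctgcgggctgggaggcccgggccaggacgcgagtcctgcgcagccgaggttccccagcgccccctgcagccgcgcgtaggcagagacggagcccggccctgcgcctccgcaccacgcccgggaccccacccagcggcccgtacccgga
ITGA6, chr2:172427086-172427335, plus strand: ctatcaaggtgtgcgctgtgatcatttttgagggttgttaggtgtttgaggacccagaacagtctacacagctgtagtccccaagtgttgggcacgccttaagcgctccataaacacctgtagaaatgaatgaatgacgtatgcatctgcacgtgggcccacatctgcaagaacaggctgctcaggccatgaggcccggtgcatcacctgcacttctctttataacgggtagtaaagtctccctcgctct
ITGAV, chr2:186589806-186590055, plus strand: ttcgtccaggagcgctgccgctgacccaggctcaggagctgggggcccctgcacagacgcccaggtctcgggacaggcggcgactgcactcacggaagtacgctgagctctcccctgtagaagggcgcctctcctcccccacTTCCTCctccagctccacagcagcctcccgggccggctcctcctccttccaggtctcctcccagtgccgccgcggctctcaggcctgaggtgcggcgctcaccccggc
ITGB1, chr10:32958231-32958480, minus strand: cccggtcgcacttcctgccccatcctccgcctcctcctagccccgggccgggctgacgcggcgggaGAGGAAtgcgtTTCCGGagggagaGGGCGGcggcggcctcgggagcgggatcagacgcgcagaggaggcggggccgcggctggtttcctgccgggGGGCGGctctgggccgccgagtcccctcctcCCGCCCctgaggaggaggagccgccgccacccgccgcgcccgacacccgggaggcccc
The ITGA4 and ITGA6 windows held none of the 4 motifs, the ITGAV window held 1 match to the PU.1-type core, and the ITGB1 window held both ETS-type cores and 3 SP1 sites. The window of ITGAE, not printed though the gene also lay above background, held 1 match to the PU.1-type core. The ITGA4 window overlaps the annotated gene, which has an earlier start. A second RefSeq start of ITGA6 has a window with 1 CCGGAA and 3 GGGCGG matches, while the second windows of ITGAV and ITGB1 held none of the 4 motifs. Over 35116 promoter windows of this length the ETS core was found in 14.5%, the PU.1-type core in 23.6%, the AP-1 site in 6.57% and the SP1 site in 42.6%. The 2 cores end in the same letters, and no position can match both on 1 strand. These matches describe letters, not bound factors.

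Comparing SB590885 with DMSO asks which integrins respond when Raf is inhibited. Of 10 integrin genes 2 passed, both lower, against 3.28% of all genes in either direction and 1.69% lower. The share of all genes ran from 1.24% to 3.49% when single arrays were left out, lowest without DMSO replicate 1, and was 0.394% without all arrays of replicate 2. Groups of 4 arrays did not overlap for the same 2 genes, against 10.2% of all genes. The median difference of the 10 genes was 0.01 and that of all genes 0.00.

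ITGA4, the alpha-4 chain of VLA-4, had 10.33, 10.54, 10.50 and 10.54 with SB590885 (replicates 1 to 4), against 11.45, 11.63, 10.99 and 11.24 with DMSO. Every SB590885 array lay below every DMSO array, and the SB590885 arrays were close together while those with DMSO spread by the R mark. The mean was 10.48 ± 0.10 with SB590885 and 11.33 ± 0.27 with DMSO (SD, n = 4 each), a difference of -0.85 (SE 0.15, limma adjusted p = 0.0117). Leaving out any 1 of the 12 arrays kept the call (highest adjusted p = 0.0458). Without all arrays of replicate 2 the difference was -0.77 and did not pass (adjusted p = 0.0620), while with the replicate block it did (adjusted p = 7.03e-05).

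**Figure D1:**
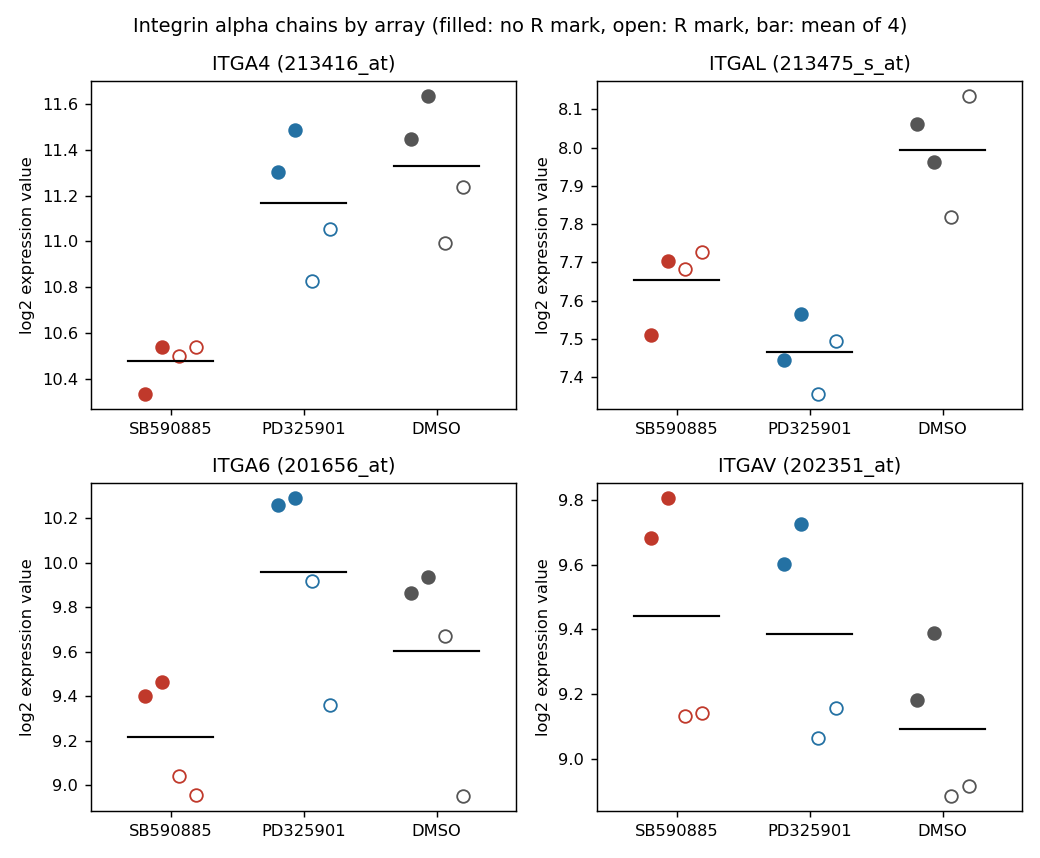
Log2 expression values (vertical axes) of the representative probe sets of ITGA4, ITGAL, ITGA6 and ITGAV on each array of the SB590885, PD325901 and DMSO groups, with filled points for arrays without the R mark, open points for arrays with it and a bar at the mean of 4. ITGA4 is low on all SB590885 arrays, ITGAL is low on all arrays of both inhibitors, and ITGA6 and ITGAV are lower on arrays with the mark in every group.

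The other probe sets of ITGA4 gave the same direction. Probe set 205884_at had 8.44, 8.51, 8.31 and 8.29 with SB590885, against 9.51, 9.83, 9.12 and 9.24 with DMSO, a difference of -1.04 (SE 0.20). Adjusted over all 54613 probe sets, this one passed (limma adjusted p = 0.0207), as did 243366_s_at at -0.88 (adjusted p = 0.0107) and 213416_at, the representative of the gene (adjusted p = 0.0146). The fourth, 205885_s_at, differed by -0.74 and did not pass (adjusted p = 0.0599), and with the replicate block it did (adjusted p = 2.47e-05). Of all 29 integrin probe sets 4 passed, the fourth of them in ITGAL, against 1.96% of all probe sets. When single arrays were left out, 1 to 6 passed, against 0.705% to 2.08% of all. The groups did not overlap for 6 of 29, the 4 of ITGA4 and the 2 of ITGAL, against 8.13%. The 4 share the target gene and the arrays, so they are not separate replicates, and CERKL overlaps ITGA4 in the annotation.

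The ITGA4 difference was -1.10 over arrays without the mark and -0.60 over arrays with it. The second minus the first was 0.51 and did not pass (unadjusted p = 0.00656, adjusted p = 0.527, limma interaction), and 1 of 19775 genes passed that test. In this representative probe set the value with DMSO was lower with the mark, while the value with SB590885 was not. In 205884_at and 205885_s_at both SB590885 arrays with the mark lay below both without it, and in 243366_s_at they did not.

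ITGAL, the alpha chain of LFA-1, had 7.51, 7.70, 7.68 and 7.73 with SB590885, against 8.06, 7.96, 7.82 and 8.13 with DMSO. The groups did not overlap: all SB590885 arrays lay just under the background line of 7.76, and all DMSO arrays just above it. The difference was -0.34 (SE 0.08, limma adjusted p = 0.0323). This call was lost without SB590885 replicate 1, 2 or 3 or DMSO replicate 1, 2 or 4 (adjusted p = 0.0601 to 0.106), with median-centred arrays (adjusted p = 0.0513) and with the other probe set, 1554240_a_at (-0.29, adjusted p = 0.148). With the replicate block it passed (adjusted p = 0.00107).

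ITGA6, the laminin-binding alpha-6 chain, had 9.40, 9.46, 9.04 and 8.96 with SB590885, against 9.87, 9.93, 9.67 and 8.95 with DMSO. The groups overlapped through DMSO replicate 4, the lowest of the 8. The difference was -0.39 (SE 0.24, 95% interval -0.92 to 0.14) and did not pass (limma adjusted p = 0.606), while with the replicate block it did (adjusted p = 0.00271). Without DMSO replicate 4 the unpaired difference was -0.61. Its second probe set, 215177_s_at, differed by -0.52 and was lower in 4 of 4 pairs of the same number (adjusted p = 0.167 over all probe sets, 0.000388 with the block).

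ITGAV, the alpha-V chain of vitronectin receptors, had 9.68, 9.81, 9.13 and 9.14 with SB590885, against 9.18, 9.39, 8.89 and 8.91 with DMSO. Each SB590885 array was above the DMSO array of its number, and within each mark both SB590885 arrays were above both DMSO arrays, while the groups of 4 overlapped. The difference of 0.35 (SE 0.19) did not pass (limma adjusted p = 0.519) and did with the replicate block (adjusted p = 0.000271) and with the R mark as a term (adjusted p = 0.00107). Without SB590885 replicate 2 the unpaired difference was 0.23.

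The replicate block called 18.9% of all genes in this comparison and 4 of the 10 integrins. The 4 were ITGA4, ITGAL and ITGA6, lower, and ITGAV, higher.

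ITGB1, the common beta chain, had 11.50, 11.55, 11.29 and 11.14 with SB590885, against 11.54, 11.55, 11.20 and 11.25 with DMSO. The groups ran through each other, at a difference of -0.01 with a 95% interval of -0.31 to 0.29. ITGAE, the alpha-E chain, was as level: 11.89, 11.88, 11.53 and 11.72 with SB590885, against 11.78, 11.87, 11.60 and 11.76 with DMSO. Its difference was 0.00 (95% interval -0.23 to 0.23). P2RX5 and HASPIN overlap ITGAE in the annotation.

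ITGB7, the partner of ITGA4 and ITGAE, had 7.28, 7.33, 7.46 and 7.44 with SB590885 and 7.22, 7.35, 7.28 and 7.44 with PD325901, against 7.17, 7.34, 7.53 and 7.34 with DMSO. All 12 arrays lay in 1 narrow range under the background line. Its difference was 0.03 with SB590885 (95% interval -0.14 to 0.20) and -0.02 with PD325901 (95% interval -0.19 to 0.14). ZNF740 overlaps ITGB7 in the annotation. ITGB2, the beta chain of LFA-1, differed by 0.10 with SB590885 (95% interval -0.07 to 0.26) and 0.05 with PD325901 (95% interval -0.11 to 0.22). ITGA5, of the fibronectin receptor, differed by 0.01 with SB590885 (95% interval -0.18 to 0.21) and -0.00 with PD325901 (95% interval -0.20 to 0.19). ITGB3, the platelet and vitronectin receptor chain, differed by 0.01 with SB590885 (95% interval -0.11 to 0.13) and 0.00 with PD325901 (95% interval -0.12 to 0.12). With SB590885 the 16 probe sets of ITGB1, ITGB2, ITGB3, ITGB7 and ITGA5 below the background line differed by -0.07 to 0.10, with 0 passing in limma, at an adjusted p under 0.05 or unadjusted.

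**Figure D2:**
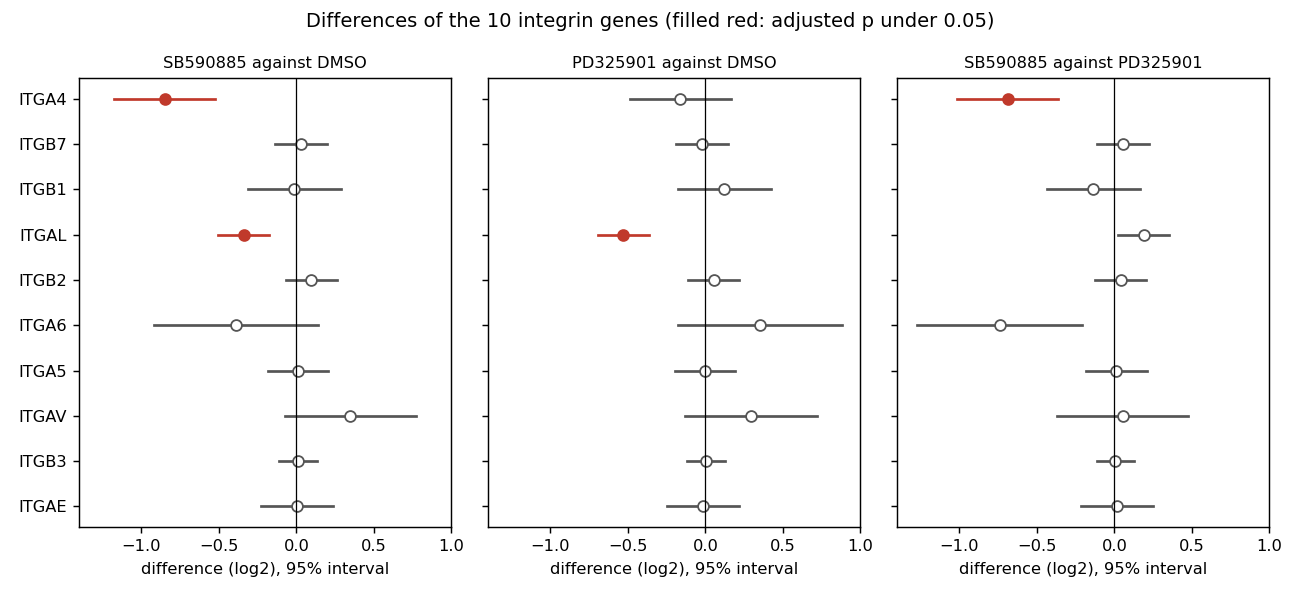
Differences of the 10 integrin genes in log2 units (horizontal axes) with 95% intervals from limma, for SB590885 against DMSO, PD325901 against DMSO and SB590885 against PD325901. Filled red points passed at an adjusted p under 0.05: ITGA4 and ITGAL for SB590885, ITGAL for PD325901, and ITGA4 between the inhibitors.

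The same question for MEK is put by PD325901 against DMSO. Of 10 integrin genes 1 passed, lower, against 0.592% of all genes in either direction and 0.506% lower. Groups did not overlap for 1 gene, against 4.08% of all genes. Both inhibitors are set against the same 4 DMSO arrays, so the comparisons are not independent.

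ITGAL had 7.44, 7.57, 7.36 and 7.49 with PD325901, against 8.06, 7.96, 7.82 and 8.13 with DMSO. No array overlapped, and every PD325901 array lay below the background line. The mean was 7.46 ± 0.09 with PD325901 and 7.99 ± 0.14 with DMSO (SD, n = 4 each), a difference of -0.53 (SE 0.08, limma adjusted p = 0.00588). Probe set 1554240_a_at had 7.29, 7.32, 6.89 and 7.29 with PD325901, against 7.90, 7.99, 7.78 and 7.72 with DMSO, and differed by -0.65 (adjusted p = 0.0107 over all probe sets). These 2 were the integrin probe sets that passed of 29, against 0.346% of all probe sets. The call of the gene held when any 1 array was left out (highest adjusted p = 0.0290) and narrowly failed without all arrays of replicate 2 (-0.57, adjusted p = 0.0508).

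ITGA4 with PD325901 had 11.30, 11.49, 10.83 and 11.05, against 11.45, 11.63, 10.99 and 11.24 with DMSO. In each of the 4 pairs the PD325901 array was lower, by 0.14 to 0.18, within groups that overlapped widely. The difference of -0.16 (SE 0.15, 95% interval -0.49 to 0.17) did not pass in limma (adjusted p = 0.983) or with the replicate block (adjusted p = 0.353).

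ITGA6 with PD325901 had 10.26, 10.29, 9.92 and 9.36, against 9.87, 9.93, 9.67 and 8.95 with DMSO. It was higher in 4 of 4 pairs by 0.25 to 0.41, and the groups overlapped. The difference of 0.35 (SE 0.24) did not pass in limma (adjusted p = 0.952) and did with the replicate block (adjusted p = 0.0130). When single arrays were left out the unpaired difference ran from 0.13, without DMSO replicate 4, to 0.55, without PD325901 replicate 4. The second probe set differed by 0.22 and did not pass with the block (adjusted p = 0.143).

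ITGAV with PD325901 had 9.60, 9.73, 9.06 and 9.16, against 9.18, 9.39, 8.89 and 8.91 with DMSO, higher in 4 of 4 pairs. The difference of 0.29 (SE 0.19) did not pass in limma (adjusted p = 0.946) and did with the replicate block (adjusted p = 0.00263). Without PD325901 replicate 2 the unpaired difference was 0.18. The block called 8.14% of all genes and 3 of the 10 integrins here: ITGAL, lower, and ITGA6 and ITGAV, higher. ITGB1 was higher in 4 of 4 pairs, at 0.12 (95% interval -0.18 to 0.42), and ITGAE differed by -0.02 (95% interval -0.25 to 0.21), and neither passed with the block (adjusted p = 0.184 and 0.901). The 16 probe sets below the background line differed by -0.05 to 0.08, with 0 passing in limma, adjusted or unadjusted.

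**Figure D3:**
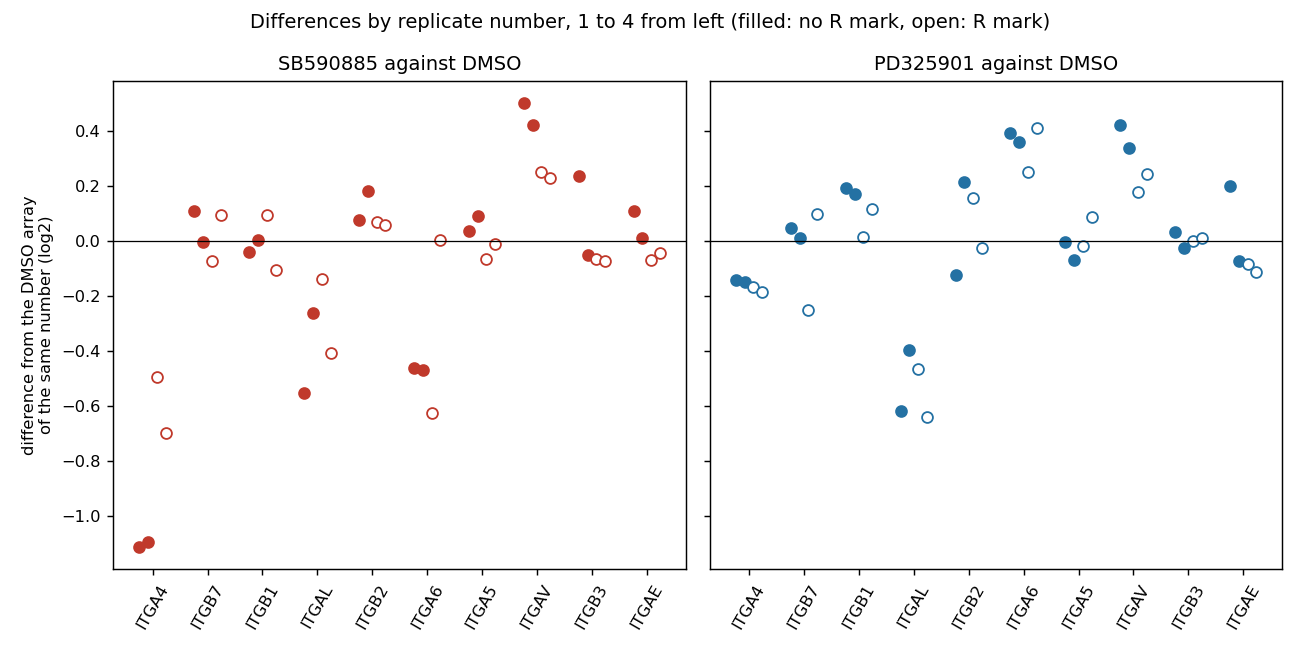
Difference of each inhibitor array from the DMSO array of the same number (vertical axis, log2 units) for the 10 integrin genes, SB590885 on the left and PD325901 on the right, with numbers 1 to 4 from left to right and open points for arrays with the R mark. All 4 points of ITGA4 and ITGAL are below 0 in both panels, all 4 of ITGAV are above 0 in both, and the points of ITGA6 are above 0 with PD325901, while with SB590885 3 of 4 are below it.

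Set against each other, SB590885 and PD325901 differed in ITGA4. Of 10 integrin genes 1 passed, lower with SB590885, against 2.82% of all genes in either direction and 0.855% lower. It was also the 1 gene whose groups did not overlap, against 7.18% of all genes. ITGA4 averaged 10.48 ± 0.10 with SB590885 and 11.17 ± 0.29 with PD325901 (SD, n = 4 each), and the highest SB590885 array (10.54) was under the lowest PD325901 array (10.83). The difference was -0.69 (SE 0.15, limma adjusted p = 0.0313), and 3 of its 4 probe sets passed over all probe sets, while 205885_s_at did not (-0.58, adjusted p = 0.160). The call was lost when any SB590885 array or PD325901 replicate 1, 2 or 4 was left out (adjusted p = 0.0554 to 0.101), and with median-centred arrays (adjusted p = 0.0742). It was also lost in a fit of the 2 groups only and without all arrays of replicate 2, and held in 15 of 25 alternative fits. With the replicate block it passed (adjusted p = 0.000118).

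ITGA6 averaged 9.22 ± 0.25 with SB590885 and 9.96 ± 0.43 with PD325901 (SD, n = 4 each), lower with SB590885 in 4 of 4 pairs. The difference of -0.74 (SE 0.24) did not pass over genes (limma adjusted p = 0.158) and did with the replicate block (adjusted p = 1.80e-05). Its second probe set, 215177_s_at, had 7.72, 7.87, 7.65 and 7.60 with SB590885, against 8.68, 8.78, 8.34 and 8.0 with PD325901. These groups did not overlap, and the difference of -0.74 (SE 0.17) passed over all probe sets (adjusted p = 0.0466). With it, 4 of 29 integrin probe sets passed, against 1.78% of all. When single arrays were left out, 0 to 3 passed, against 0.917% to 1.68% of all. ITGAL was 0.19 higher with SB590885 than with PD325901 (95% interval 0.03 to 0.36), which did not pass (limma adjusted p = 0.280) and did with the replicate block (adjusted p = 0.0400). Its other probe set differed by 0.36 (adjusted p = 0.0936 over all probe sets, 0.00126 with the block). The block called 18.1% of all genes and 3 of the 10 integrins, ITGA4, ITGA6 and ITGAL. ITGAV differed by 0.05 (95% interval -0.37 to 0.48). The 16 probe sets below the background line differed by -0.09 to 0.05, with 0 passing in limma, adjusted or unadjusted. The representative of ITGB1 differed by -0.14 (95% interval -0.43 to 0.16), and with the replicate block its probe set 1553530_a_at passed (-0.29, adjusted p = 0.0113) while its other probe sets did not.

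**Figure D4:**
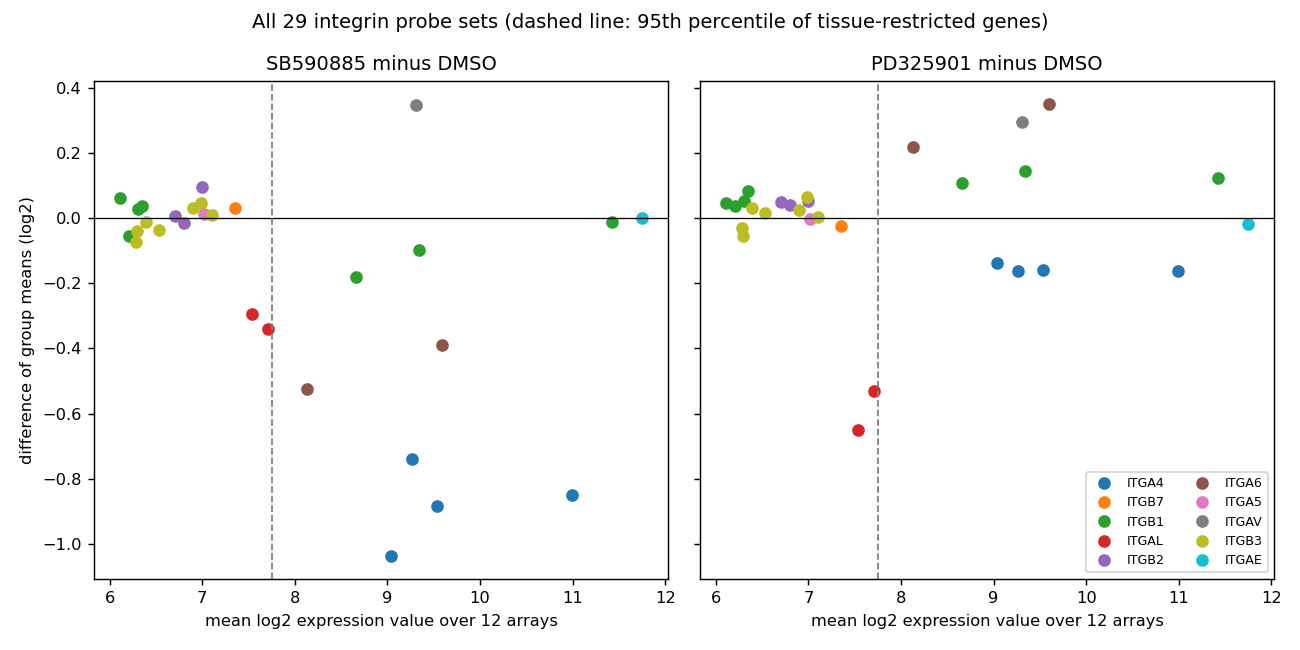
Difference from DMSO (vertical axes, log2 units) against the mean log2 expression value over 12 arrays (horizontal axes) for all 29 integrin probe sets, SB590885 on the left and PD325901 on the right, with the dashed line at the background level of 7.76. The probe sets of ITGA4 lie at -0.74 to -1.04 with SB590885 and at -0.14 to -0.16 with PD325901, and those of ITGB2, ITGB3, ITGB7 and ITGA5 lie near 0 left of the line.

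Genes around the integrins were read in lists chosen with earlier results of these data known, and nothing particular to a list is drawn from its count. The background is 3.28%, 0.592% and 2.82% of all genes called for SB590885 against DMSO, PD325901 against DMSO and SB590885 against PD325901. With the replicate block 9.09% of all genes were higher and 9.84% lower with SB590885, 1.96% and 6.18% with PD325901, and 12.4% and 5.73% between the inhibitors. Of 15 other integrin chains measured, 0 lay above background and 0 passed in any comparison in limma (1 unadjusted for SB590885 against DMSO, 0 in the others); with the replicate block ITGB8, at 6.4, passed with SB590885. Of 27 ligands, ICAM2, a ligand of LFA-1, fell with SB590885, with 10.91 ± 0.16 against 11.38 ± 0.11 with DMSO (limma adjusted p = 0.0107). It was lower than with PD325901 too, at -0.48 (adjusted p = 0.00931), and no other ligand passed in any comparison without the replicate block. With the block, ICAM3, a further LFA-1 ligand, was lower with both inhibitors, by -0.27 with SB590885 and -0.21 with PD325901 (adjusted p = 0.00175 and 0.0183), and THBS1 and FBN1, at or below 7.35, passed in some comparisons. The matrix and endothelial ligands VCAM1 (6.4) and FN1 (6.9), which myeloma cells meet on stroma, were at background in the line itself. Medians of the ligand list were -0.01 with SB590885 and 0.02 with PD325901.

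Of 43 measured genes of focal adhesions and integrin signalling 2 fell with SB590885, 2 fell with PD325901 and 0 rose with either. FGR, a kinase of the Src family, fell by 0.48 and CSK, which holds Src kinases inactive, fell by 0.42 with SB590885 (limma adjusted p = 0.00432 and 0.00201). VAV3 and VAV1, signalling proteins downstream of lymphocyte receptors, fell with PD325901, with differences of -0.81 and -0.44 (adjusted p = 0.00611 and 0.0149). Between the inhibitors, FGR (-0.70) and SYK (-0.39), a kinase of immune receptors and integrins, were lower with SB590885. GIT2 (0.32), a scaffold of paxillin complexes, and VCL (0.28), vinculin, were higher with it. The list medians were -0.03 with SB590885 and -0.06 with PD325901, against 0.00 for all genes. With the replicate block 4 were higher and 10 lower with SB590885, 2 higher and 6 lower with PD325901, and 10 higher and 4 lower with SB590885 than with PD325901.

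Among 32 genes that activate integrins or bind their tails, RAP1GDS1, a chaperone of small GTPases, fell by 0.27 with SB590885 (limma adjusted p = 0.0455) and 0 passed with PD325901 (4 unadjusted). With the replicate block 3 were higher and 6 lower with SB590885, 0 higher and 5 lower with PD325901, and 4 higher and 3 lower with SB590885 than with PD325901. Among 23 trafficking genes, RAB11FIP1, which works in receptor recycling, fell to 7.08 ± 0.17 with PD325901, against 8.22 ± 0.20 with DMSO (adjusted p = 0.0269). It was 1.66 higher with SB590885 than with PD325901 (adjusted p = 0.00142), and DAB2, an endocytic adaptor, differed by -0.39 (adjusted p = 0.0198). DAB2 averaged 7.2, under the background line. None of the 23 passed with SB590885 against DMSO (0 in limma, 2 unadjusted), and with the replicate block 4 were higher and 1 lower. With the block 2 were higher and 3 lower with PD325901, and 5 higher and 2 lower between the inhibitors. Of 25 other adhesion and homing receptors 2 fell with SB590885 and 1 with PD325901. With the replicate block 7 were lower with SB590885, 4 lower and 1 higher with PD325901, and 3 lower and 1 higher between the inhibitors. SDC1, a heparan sulfate proteoglycan that marks plasma cells, fell by 0.55 with SB590885 (adjusted p = 0.0398). CD48, a ligand of lymphocyte receptors, fell by 1.52 with SB590885 and fell by 1.97 with PD325901 (adjusted p = 0.0173 and 0.00770). PECAM1, a homophilic adhesion receptor, differed by -0.94 between SB590885 and PD325901 (adjusted p = 0.00559). With the block it passed against DMSO in opposite directions, at 0.53 with PD325901 and -0.42 with SB590885 (limma adjusted p = 0.0172 and 0.0295). MAF, a factor that drives ITGB7 and CCND2 in a subset of myelomas, was at 6.5 and CCND2 at 6.8, both at background like ITGB7. Of 8 measured genes of that MAF module 1 rose with PD325901, DEPTOR, an mTOR inhibitor under MAF in myeloma, with 9.29 ± 0.23, against 8.26 ± 0.20 with DMSO (adjusted p = 0.00501), and 0 passed with SB590885 (2 unadjusted, 2 with the block).

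The genes whose pattern was most like that of ITGA4 over the 12 arrays, after the mean of each replicate number was taken off, were TRIP6 (Pearson r = 0.991), PLPP2 (0.990), CPED1 (0.984), BEND3 (0.984) and ABCE1 (0.984). TRIP6 averaged 8.25 on SB590885 arrays, 8.64 on PD325901 arrays and 8.69 on DMSO arrays. Such a pattern was common: 399 of 12512 genes had r at or above 0.9. For ITGB7, near background, the closest were SLC2A8 (0.938), PNISR-AS1 (0.937), TRPV6 (0.924), PDHB (0.921) and ZNF182 (0.907). All of these genes share the same 12 arrays, so the correlations are a description.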

How the data were processed

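The data were 12 Affymetrix HG-U133 Plus 2.0 arrays of INA-6 cells, hybridised from 100 ng of total RNA each per the labels' protocols. The authors deposited 1 log2 expression value per array for each probe set, made with RMA in R 3.0.1, per the submitters' processing notes; no source used here says whether the arrays were normalised together or filtered. RMA pulls weak probe sets towards a floor (lowest value per array 5.85 to 6.01), which can shrink their differences. The number of arrays limits the precision.

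Of 54675 probe sets 62 controls were left out, and 41091 had 1 symbol, 1801 several and 11721 none; symbols were updated through gene identifiers to the RefSeq table of GRCh38.p14. A gene was its probe set with the highest mean. limma 3.58.1 in R 4.3.3 fitted group means over 12 arrays, with moderated variances (no trend). Its p-values were adjusted by Benjamini-Hochberg over 19775 genes or, separately, 54613 probe sets. The procedure was tested on simulated data with independent noise on each array, so that test does not cover arrays that deviate together. The fixed lists held 303 symbols, of which 281 were measured. The members and lists were chosen with earlier results of these data known. Named were all members, up to 4 passing genes with the smallest p per list and comparison, and the 5 genes most like ITGA4 and ITGB7. The exclusion of replicate 2, for its interferon response genes, alone or with the block, and the tests of the R mark were added after the data were seen.

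The labels number the arrays 1 to 4 in each group. After group means were taken off, arrays of the same number correlated at 0.544 to 0.913 (12 pairs of arrays), arrays of another number and the same R mark at 0.123 to 0.646 (12 pairs), and arrays of opposite mark at -0.718 to -0.443 (24 pairs). The numbers were read as pairs, since every same-number correlation was above 0.1. Arrays of another number and the same mark met this rule too, so it cannot tell pairing by number from the mark. The paired fit (replicate block) is printed where it changes the call of a member or the count of a list. Alternatives covered normalisation, low values, the choice of probe set, covariates, moderation and the arrays used.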

Additional observations from a re-analysis of the deposited data

Results flagged for a closer look

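In 87 groups of 4 values (29 probe sets in 3 groups) 2 held an array far from the other 3; by chance about 1 in 20 groups would. ITGAL probe set 1554240_a_at read 6.89 for PD325901 replicate 3, while the other 3 PD325901 arrays read 7.29 to 7.32. ITGB3 probe set 204628_s_at read 7.28 for SB590885 replicate 1, while the other 3 SB590885 arrays read 7.04 to 7.07. The second lies at background, and the call of ITGAL with PD325901 held without the first array in the representative probe set.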

How the results depend on the processing

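Over 30 gene differences and 750 alternatives, 706 kept their side of the threshold, 23 lost the call, 21 gained it and no called difference reversed; the causes were not tested. The sign changed in 80 alternatives of 16 differences, none over 0.10 in size and passing in neither fit. Counts of passing genes of 10 (in limma, at an adjusted p under 0.05) were 2 for SB590885 against DMSO, 1 for PD325901 against DMSO and 1 for SB590885 against PD325901, and in that order 4, 3 and 3 with the replicate block (18.9%, 8.14% and 18.1% of all genes). Of 29 probe sets 4, 2 and 4 passed, and 9, 4 and 9 with the replicate block (13.4%, 4.81% and 12.9% of all probe sets), which changed no gene call beyond those printed above. When the R mark was added to the fit, PD325901 against DMSO and the comparison of inhibitors each had 2 genes (6.52% and 16.1% of all), while 8 probe sets passed both for SB590885 against DMSO and between inhibitors (12% and 11.5% of all). Arrays without the mark gave 4, 2 and 3 genes (13.3%, 0.941% and 11.9% of all), and 9 and 10 probe sets for SB590885 against DMSO and between inhibitors (10.4% and 9.80% of all). Arrays with it gave 1 gene for SB590885 against DMSO (5.39% of all).

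With median-centred arrays, or in fits of the 2 groups only, SB590885 against DMSO had 1 gene (1.93% and 3.33% of all genes). The comparison of inhibitors had 0 genes (1.55% and 1.14% of all) and 0 probe sets (1.06% and 0.729% of all). At an unadjusted p under 0.05 in limma it had 3 genes and 9 probe sets. Unadjusted counts, here and above, have no share over all genes beside them, and nothing is drawn from them. PD325901 against DMSO had 1 probe set with 2 groups only (0.223% of all). Quantile normalisation gave 2 genes and 8 probe sets between inhibitors (7.86% and 4.68% of all), and ITGAV rising with SB590885 (adjusted p = 0.0460). Without _s_at and _x_at probe sets SB590885 against DMSO had 1 gene (3.01% of all). Without all arrays of replicate 2, 0 genes passed (0.394%, 0.319% and 0.91% of all) and 0 probe sets (0.209%, 0.163% and 0.472% of all). Unadjusted, 2, 1 and 2 genes and 7, 2 and 10 probe sets did. With the replicate block added, 4, 3 and 2 genes (13.7%, 6.55% and 13.9% of all) and 9, 4 and 8 probe sets (8.97%, 3.69% and 8.70% of all) passed. Leaving out single arrays gave 1 to 2, 1 to 1 and 0 to 1 genes, and 1 to 6, 2 to 2 and 0 to 3 probe sets. The shares called were, in that order, 1.24% to 3.49%, 0.364% to 0.637% and 1.42% to 2.57% of all genes. Those of all probe sets were 0.705% to 2.08%, 0.194% to 0.344% and 0.917% to 1.68%. Signal near background limits the reading of ITGAL, ITGB2, ITGB3, ITGB7 and ITGA5.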
